A study of Mus musculus with 4 samples.

Results

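Transcripts of 10 genes that drive cells through G1 and into S phase were followed in whole lungs of mouse embryos: the D-type cyclins Ccnd1, Ccnd2 and Ccnd3, the E-type cyclins Ccne1 and Ccne2, cyclin A2 (Ccna2), the cyclin-dependent kinases Cdk2, Cdk4 and Cdk6, and the phosphatase Cdc25a. Every probe set whose annotated symbol was exactly one of these was taken, which gave 22 of the 20380 probe sets with 1 symbol, and 10 of 12393 genes. Biotin-labelled total RNA of 2 sftpc-nmyc and 2 wildtype lung samples, all labelled embryonic day 18, was read on 1 Affymetrix array each, and the duplicates are described as biological replicates. The sftpc-nmyc embryos carry mouse Nmyc1 cDNA (Mycn, a MYC-family transcription factor) fused to EGFP under 3.7 kb of the human SFTPC promoter and enhancer, which is active in lung epithelium. The 4 transgenic embryos of the study were made by pronuclear injection into F2 eggs of C57BL/6J and DBA/2J background and taken at embryonic day 18.5. The strain, litter and exact hour of the wildtype embryos, the transgene's copy number and which of the 4 embryos were hybridised are not stated in these sources.

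G1 cyclins and their kinases link growth signals to the start of DNA synthesis. D-type cyclins bind CDK4 or CDK6 and begin to phosphorylate the retinoblastoma protein, which frees E2F factors to transcribe genes of S phase, among them those for cyclins E and A. Cyclins E and A then activate CDK2 at the G1/S boundary and through S phase, and CDC25A removes the inhibitory phosphates from CDK2. MYC-family proteins bind DNA with MAX, preferably at the sequence CACGTG, called an E-box. In the late fetal lung, division slows while the alveolar cell types mature.

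The misexpressed gene was read first. Mycn probe set 1425922_a_at gave signals of 455.2 and 356 in sftpc-nmyc lungs, against 34.7 and 32.1 in wildtype lungs, a log2 fold change of 3.46 ± 0.19 (SE, n = 2 per group, limma adjusted p = 7.3e-05). Its wildtype signals were near background, and it passed the filter on dim genes only through the sftpc-nmyc lungs. The other two Mycn probe sets did not follow it. In the fit over probe sets, 1417155_at was lower, at 25.1 and 27.2 in sftpc-nmyc lungs and 78.7 and 63.5 in wildtype lungs (log2 fold change -1.20 ± 0.27, SE, limma adjusted p = 0.0155). Probe set 1425923_at read 61.8 and 43.8 in sftpc-nmyc lungs, against 57.3 and 18.8 in wildtype lungs, where the groups overlapped and the test was not passed (0.64 ± 0.45, SE, limma adjusted p = 0.331). Which parts of the transcript or the transgene these probe sets read is not given in the sources used here. Its partner Max was lower, at 70.8 and 55.2 in sftpc-nmyc lungs and 138 and 147.5 in wildtype lungs (log2 fold change -1.10 ± 0.20, limma adjusted p = 0.00598), a call that was lost without wildtype replicate 2 (-1.05, limma adjusted p = 0.0501). Array medians lay between 65.45 and 70.8, and arrays correlated at r = 0.969 within sftpc-nmyc, 0.964 within wildtype and 0.922 to 0.933 between the groups. Sex also appeared to differ: Xist read 59.3 and 63.9 in sftpc-nmyc lungs, against 1707.8 and 1506.1 in wildtype lungs, and the Y-linked Eif2s3y 58 and 61.7 against 3.1 and 0.8, so sex and genotype cannot be told apart in any comparison here. The Y-linked Uty was less clear, at 57 and 41.4 in sftpc-nmyc lungs and 29.8 and 1.1 in wildtype lungs. Both Y-linked genes were too dim to be tested. Detection calls were not used here. A rough background level is the 73.4 that the brightest of 27 Bacillus control probe sets reached, and 3 of the 22 probe sets lay below it on all 4 arrays. Both sftpc-nmyc signals of Max also lay below this level, which leaves the size of its fold uncertain.

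Of the 10 genes, 7 were higher in sftpc-nmyc lungs: Ccnd2, Cdk4, Ccne1, Ccne2, Ccna2, Cdk2 and Cdc25a. Ccnd3 did not pass the test, Ccnd1 gave different answers from different probe sets, and Cdk6 was too dim to be tested. With the brightest probe set of each gene, 9 genes entered the test and 0 were lower at a limma adjusted p under 0.05, nor were any at an unadjusted p under 0.05. Over all 8675 genes tested, 14.7% were called higher and 15.7% lower. The median log2 fold change, sftpc-nmyc minus wildtype, was 0.88 over these 9 genes and -0.02 over all genes tested. Among single probe sets, 16 of the 19 tested were higher and 0 lower, also at an unadjusted p under 0.05, where 26.4% of all 14266 probe sets tested were called, 13.5% higher and 12.9% lower. Genes with a 4-array mean under the 30th percentile were not tested, and Ccne2 passed that filter, at a mean of 5.54 against a limit of 5.40 on the log2 scale, only through its level in the sftpc-nmyc lungs. Without wildtype replicate 2, 3 of the 9 genes and 9 of the 19 probe sets were called, all higher.

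**Figure D1:**
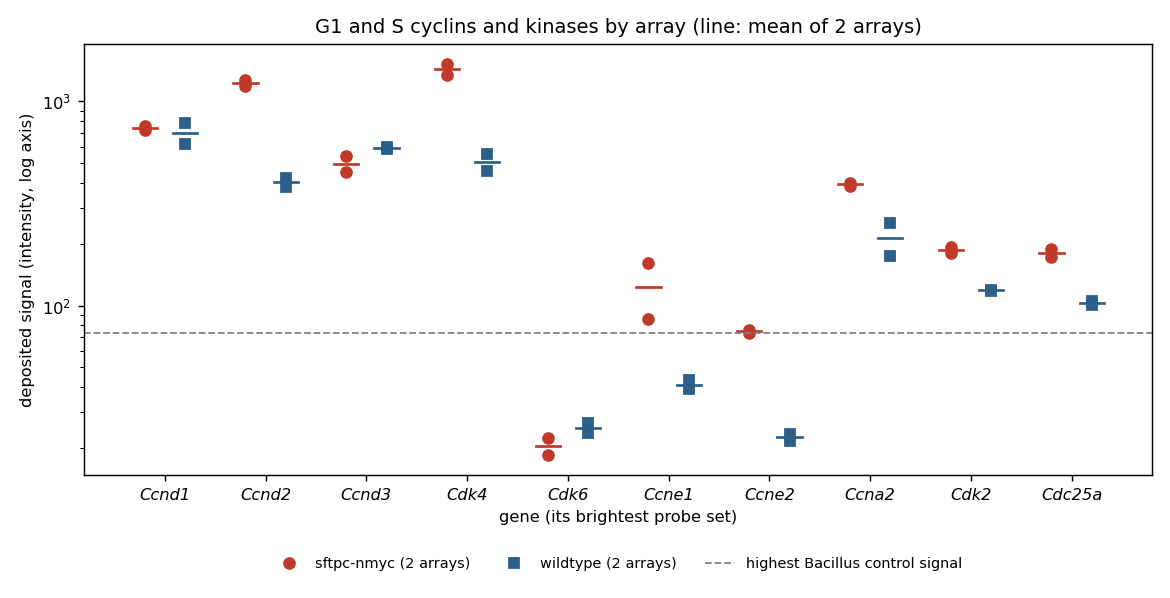
Deposited signal (log axis) of the brightest probe set of each of the 10 genes on every array, with sftpc-nmyc lungs as circles, wildtype lungs as squares and a line at the mean of 2 arrays. Ccnd2, Cdk4, Ccne1 and Ccne2 show the widest gaps between the groups, the Ccnd1 groups overlap, and all 4 Cdk6 signals lie below the dashed line at 73.4, the highest Bacillus control signal.

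Among the 3 D-type cyclins, Ccnd2 was called higher, Ccnd3 was not called, and the probe sets of Ccnd1 disagreed; differences between these genes were not tested. Ccnd2, the D cyclin with the most probe sets on the array, had 1190.2 and 1271.1 in sftpc-nmyc lungs, against 422.4 and 380.9 in wildtype lungs, at its brightest probe set 1416122_at. Both sftpc-nmyc signals were more than any wildtype one, and the log2 fold change came to 1.58 ± 0.13 (SE, limma adjusted p = 0.000394), a 2.99-fold difference. This call held with each of the 4 arrays left out in turn, with log2 fold changes of 1.50 to 1.68.

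All 7 Ccnd2 probe sets were higher in sftpc-nmyc lungs, and the groups overlapped in none of them, in deposited signal or on the normalized log2 scale. Of all probe sets tested, 65.9% had groups that do not overlap on the normalized scale. That share does not cover probe sets too dim to be tested. Probe set 1434745_at read 924.1 and 934.4 in sftpc-nmyc lungs and 382.5 and 368.3 in wildtype lungs, with the tightest replicates of the brighter ones. Probe set 1430127_a_at, whose suffix marks probes shared by transcripts of 1 gene, read 721.5 and 844.9 in sftpc-nmyc lungs and 274.8 and 195.1 in wildtype lungs. The 5 bright enough to be tested passed, with log2 fold changes of 1.28 to 2.52 (limma p adjusted across all probe sets, below called probe-set adjusted p, = 0.000552 to 0.00323). The highest of these, 2.52 ± 0.37 at 1448229_s_at, also had the widest replicate gaps, with 463.6 and 296.6 in sftpc-nmyc lungs and 41.4 and 92.4 in wildtype lungs. Its suffix, like that of the tested 1455956_x_at, marks probes that can match other transcripts. The other two probe sets, 1416123_at at 23.5 and 26.6 in sftpc-nmyc lungs against 8 and 9.2 in wildtype lungs, and 1416124_at at 57.5 and 41.3 against 24.1 and 8, lay below the Bacillus level throughout and were not tested.

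Ccnd1, the D cyclin most often tied to growth factor signals, was read by 3 probe sets that disagreed. The brightest, 1448698_at, gave 754 and 719.7 in sftpc-nmyc lungs and 785.3 and 615.6 in wildtype lungs, so that the sftpc-nmyc signals lay between the wildtype ones (log2 fold change 0.06 ± 0.15, limma adjusted p = 0.80). At 1417420_at the signals were 607.2 and 686.7 in sftpc-nmyc lungs and 414 and 387.9 in wildtype lungs, with no overlap and a log2 difference of 0.67 ± 0.14 (limma probe-set adjusted p = 0.0123). Likewise 1417419_at read 236 and 306.1 in sftpc-nmyc lungs and 159.6 and 170 in wildtype lungs, at 0.69 ± 0.18 (limma probe-set adjusted p = 0.0271). Averaged, the 3 probe sets passed at 0.47 on the log2 scale (limma adjusted p = 0.033 among all genes). The calls of both dimmer probe sets were lost without sftpc-nmyc replicate 2 (limma adjusted p = 0.0668 at 1417420_at and 0.146 at 1417419_at) or wildtype replicate 2 (0.0750 and 0.0854), and that of 1417419_at also without wildtype replicate 1 (0.116). With all 4 arrays, the call at 1417419_at was lost with no filter (limma adjusted p = 0.0573) and with no variance trend (0.0578). The position of the probe sets in the transcript was not determined here.

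Ccnd3, the D cyclin with a single probe set, was not past the threshold in either direction. It read 451.5 and 537.1 in sftpc-nmyc lungs, against 584 and 594.7 in wildtype lungs. Both sftpc-nmyc signals were thus the lower ones, but the log2 fold change of -0.28 ± 0.14 did not pass (limma adjusted p = 0.175). Groups that do not overlap were common, at 68.1% of all genes tested on the normalized scale, where those of Ccnd3 did not overlap either. The value ranged from -0.41 to -0.15 with single arrays left out.

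Cdk4, the kinase partner of the D cyclins, was higher at each of its 3 probe sets. The brightest, 1422441_x_at, read 1342 and 1528.1 in sftpc-nmyc lungs and 553.5 and 454.9 in wildtype lungs, a log2 fold change of 1.48 ± 0.15 (SE, limma adjusted p = 0.000703). The suffix _x_at marks probes that can match other transcripts. Probe set 1422440_at, whose suffix carries no letter mark, read 863.4 and 1121.7 in sftpc-nmyc lungs and 322.6 and 270.2 in wildtype lungs, at 1.69 ± 0.17 (limma probe-set adjusted p = 0.000959). The remaining one, 1422439_a_at, read 914.9 and 1088.4 in sftpc-nmyc lungs and 364.4 and 321.8 in wildtype lungs, at 1.51 ± 0.15. The call held whichever array was left out, with log2 fold changes of 1.33 to 1.64.

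Cdk6, the other kinase partner of the D cyclins, was read by a single dim probe set. It gave 18.5 and 22.6 in sftpc-nmyc lungs, against 26.8 and 23.8 in wildtype lungs, all below the Bacillus level. The log2 difference of -0.14 was not tested in the filtered fit, and with no filter it did not pass (limma adjusted p = 0.803).

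Promoter sequence is shown for these partner kinases because they share a role and differ in the number of E-boxes. Each run is the 250 bases before the annotated start, on the gene's strand, from RefSeq on GRCm38.p6, with CACGTG in capitals. Cdk4 is at chr10:127063285-127063534 and Cdk6 at chr5:3343643-3343892, both on the plus strand.
Cdk4: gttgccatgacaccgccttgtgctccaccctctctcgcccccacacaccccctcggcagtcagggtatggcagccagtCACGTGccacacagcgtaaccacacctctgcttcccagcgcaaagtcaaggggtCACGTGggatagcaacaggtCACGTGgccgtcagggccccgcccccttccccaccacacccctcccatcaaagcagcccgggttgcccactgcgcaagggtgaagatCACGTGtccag
Cdk6: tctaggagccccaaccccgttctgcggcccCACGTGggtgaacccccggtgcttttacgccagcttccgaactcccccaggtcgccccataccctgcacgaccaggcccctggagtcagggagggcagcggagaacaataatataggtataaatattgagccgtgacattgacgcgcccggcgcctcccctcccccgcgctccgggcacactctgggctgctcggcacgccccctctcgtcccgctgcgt
The Cdk4 window holds 4 E-boxes, which begin 172, 118, 98 and 11 bases before the start, and the Cdk6 window holds 1, which begins 220 bases before it. CACGTG reads the same on both strands. Of 32851 RefSeq promoter windows of the same length, 6.02% hold at least 1 and 7 windows (0.0213%) hold 4 or more. Of the 10 genes, 6 had a window in the table (Ccnd3, Ccne1, Cdc25a, Cdk2, Cdk4 and Cdk6), and CACGTG stood in those of Cdk4 and Cdk6 alone. A match describes letters, not binding, which was not measured here.

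**Figure D2:**
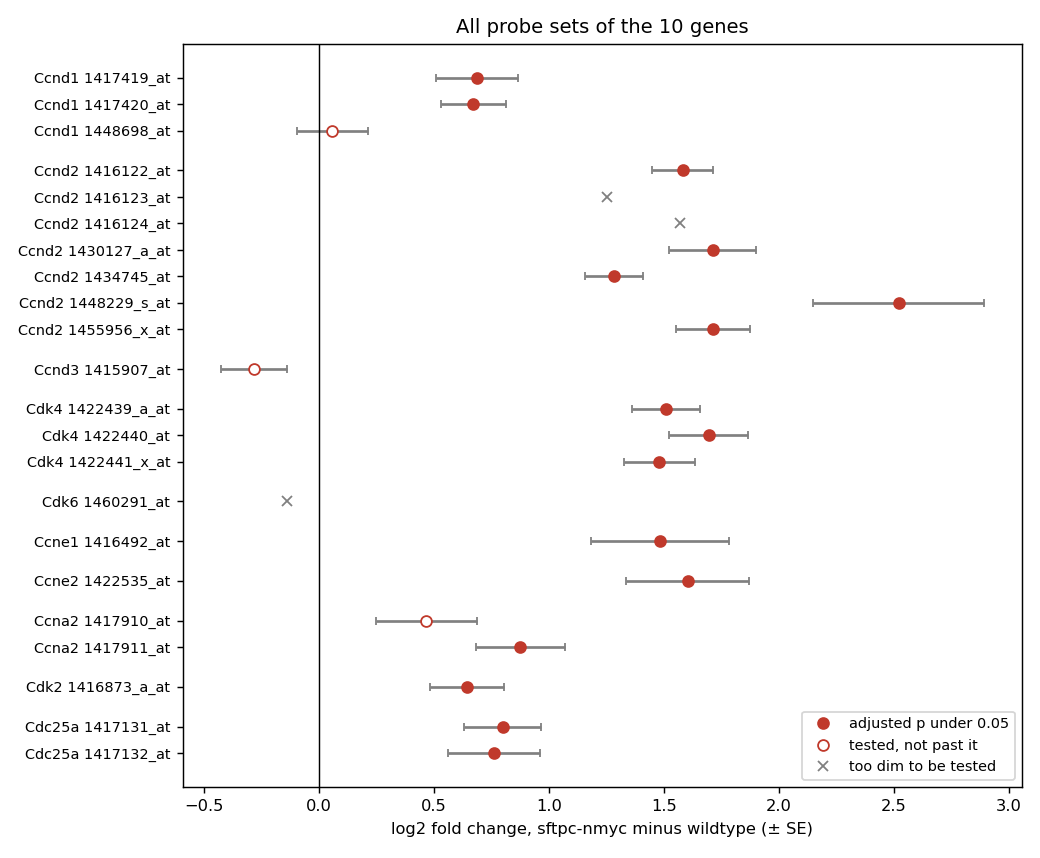
Log2 fold change, sftpc-nmyc minus wildtype, of all 22 probe sets with limma standard errors, grouped by gene. Filled points passed at an adjusted p under 0.05 over all probe sets, open points did not, and crosses were too dim to be tested. The 7 Ccnd2 and 3 Cdk4 points all lie right of 1, whereas the 3 Ccnd1 points lie between 0.06 and 0.69.

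The E-type cyclins, which activate CDK2 at the start of S phase, were both higher, from low levels. Ccne1 read 85.9 and 161.5 in sftpc-nmyc lungs, against 43.2 and 39 in wildtype lungs, a log2 fold change of 1.48 ± 0.30 (SE, limma adjusted p = 0.0084). Its sftpc-nmyc replicates differed by 0.85 on the normalized log2 scale, the widest gap among the brightest probe sets of the 10 genes. The call was lost without sftpc-nmyc replicate 2 (1.06, limma adjusted p = 0.0677) or wildtype replicate 2 (1.46, limma adjusted p = 0.0602).

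Ccne2 read 76.4 and 73.1 in sftpc-nmyc lungs and 23.6 and 21.8 in wildtype lungs, with close replicates in each group. Its log2 fold change of 1.60 ± 0.27 (SE, limma adjusted p = 0.00432) was the largest among the brightest probe sets of the 10 genes. The wildtype signals of both E cyclins lay below the Bacillus level and the sftpc-nmyc signals of Ccne2 at about that level, so the size of either fold rests on how background was handled. With an offset of 50 in place of 5, which damps dim signals, the log2 fold changes were 0.81 for Ccne2 and 0.93 for Ccne1, both still past the threshold (limma adjusted p = 0.00354 and 0.01). At that offset Ccnd2 stood at 1.48 and Cdk4 at 1.40, so Ccne2 was no longer the largest.

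Ccna2, which takes over CDK2 in S phase, read 399.1 and 385.2 in sftpc-nmyc lungs and 253.1 and 174.5 in wildtype lungs at 1417911_at, a log2 fold change of 0.88 ± 0.19 (SE, limma adjusted p = 0.012). At its other probe set, 1417910_at, the signals were 337.7 and 320.4 in sftpc-nmyc lungs and 297.2 and 186.7 in wildtype lungs. The groups did not overlap there either, but the log2 fold change of 0.47 ± 0.22 did not pass (limma probe-set adjusted p = 0.158). Both probe sets had close sftpc-nmyc replicates and wildtype replicates more than 0.51 apart on the normalized log2 scale, with wildtype replicate 2 the lower. Without wildtype replicate 2 the call at 1417911_at was lost (0.62, limma adjusted p = 0.0681), and without wildtype replicate 1 that at 1417910_at was gained (0.80, limma probe-set adjusted p = 0.0385).

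Cdk2, the kinase of cyclins E and A, changed least among the 7 that passed. It read 180.6 and 193 in sftpc-nmyc lungs and 118 and 119.2 in wildtype lungs, and its log2 fold change was 0.64 ± 0.16 (SE, limma adjusted p = 0.0194). The estimate moved little with single arrays left out, from 0.60 to 0.68, but with 3 arrays it did not pass in any of the 4 cases (limma adjusted p = 0.0572 without sftpc-nmyc replicate 1, 0.0944 without sftpc-nmyc replicate 2, 0.0741 without wildtype replicate 1 and 0.0710 without wildtype replicate 2).

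Cdc25a, the phosphatase that activates CDK2, was higher at both of its probe sets. At 1417131_at it read 189.4 and 173.1 in sftpc-nmyc lungs and 105.3 and 100.4 in wildtype lungs, a log2 fold change of 0.80 ± 0.16 (SE, limma adjusted p = 0.00929). At 1417132_at it read 114.6 and 137.8 in sftpc-nmyc lungs and 69.3 and 80 in wildtype lungs, at 0.76 ± 0.20 (limma probe-set adjusted p = 0.0278). The first call was lost without sftpc-nmyc replicate 1 (0.73, limma adjusted p = 0.0521) or wildtype replicate 2 (0.78, limma adjusted p = 0.0510), and the call at 1417132_at with any 1 of the 4 arrays left out (limma probe-set adjusted p = 0.0515 without sftpc-nmyc replicate 1, 0.148 without sftpc-nmyc replicate 2, 0.105 without wildtype replicate 1 and 0.0546 without wildtype replicate 2) or, with all 4 arrays, with no filter (0.0704). The Cdc25a promoter is shown because it is the window of the 6 that holds TTTGGCGC, a form of the site that E2F factors are known to bind. It is the 250 bases before the start at chr9:109875329-109875578, plus strand, GRCm38.p6, with that motif in capitals.
Cdc25a: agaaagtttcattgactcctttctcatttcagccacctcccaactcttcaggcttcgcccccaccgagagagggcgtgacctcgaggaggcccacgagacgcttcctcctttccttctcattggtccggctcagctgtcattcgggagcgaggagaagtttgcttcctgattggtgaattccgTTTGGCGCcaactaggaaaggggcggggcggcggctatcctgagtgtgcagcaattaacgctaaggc
The motif begins 67 bases before the start. Searched on both strands, TTTGGCGC stood in 0.417% of the 32851 windows, TTTCGCGC in 0.256% and in none of the 6, and TTTCCCGC in 0.895% and in that of Cdk2, 140 bases before its start.

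**Figure D3:**
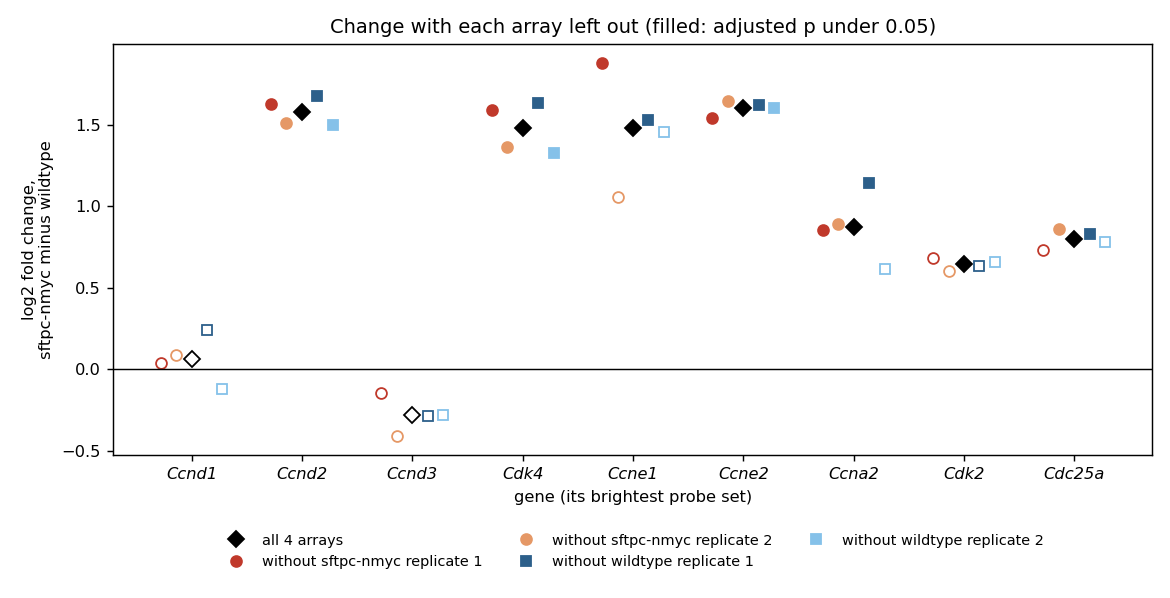
Log2 fold change, sftpc-nmyc minus wildtype, of the 9 tested genes with all 4 arrays (diamonds) and with each array left out in turn (circles and squares), filled where the limma adjusted p is under 0.05. Ccnd2, Cdk4 and Ccne2 stay filled throughout, Cdk2 keeps its size but not its call, and Ccne1 spreads from 1.06 to 1.88.

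Genes with the most similar pattern were sought for the members with the largest and the smallest change that passed, as the distance between normalized log2 profiles over the 4 arrays, each centred on its own mean. Closest to Ccne2 were Phgdh, an enzyme of serine synthesis (distance 0.0683), Hspe1, a mitochondrial chaperonin (0.0821), and L3hypdh (0.0964). Closest to Cdk2 were Cyc1, cytochrome c1 of the respiratory chain (0.0175), Naxd (0.0246) and Spag7 (0.0389). With 4 arrays in 2 groups, such a distance mostly reflects the group difference.

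Genes around these cyclins and kinases were read against the same shares over all genes tested, 14.7% higher, 15.7% lower and 30.4% in either direction. Counts at an unadjusted p under 0.05 are also given below, but the share of all genes at that cut was not computed. The inhibitors that restrain the kinases went both ways. Of 7 on the list, 6 were tested, of which 1 was higher and 3 were lower (median log2 fold change -0.42). Cdkn2b, p15, an inhibitor of CDK4 and CDK6, read 97.1 and 53.4 in sftpc-nmyc lungs and 307.9 and 305.9 in wildtype lungs (-2.00 ± 0.26, limma adjusted p = 0.00154). Cdkn1a, p21, was also lower, at 119.5 and 130.7 in sftpc-nmyc lungs and 231.1 and 291.6 in wildtype lungs (-1.02 ± 0.18). The opposite direction was seen for Cdkn1c, p57, an imprinted inhibitor of CDK2 complexes, at 2390.5 and 2910.8 in sftpc-nmyc lungs and 1104.2 and 1094.1 in wildtype lungs (1.19 ± 0.13, limma adjusted p = 0.000884).

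Among the retinoblastoma and E2F genes downstream of cyclin D, 3 of 10 tested were higher and 0 lower in limma (4 and 0 at an unadjusted p under 0.05), with a median log2 fold change of 0.40. That share is close to the 30.4% of all genes called in either direction, and above the 14.7% called higher. E2f8, a repressive E2F of S phase, read 139.1 and 121 in sftpc-nmyc lungs and 22.5 and 7.9, under the Bacillus level, in wildtype lungs (2.91 ± 0.37). It entered the test only through its level in sftpc-nmyc lungs, and its fold is against a level near background. The others that passed were Rbl1, p107, at 1.17 ± 0.21 and Tfdp1, the DNA-binding partner of E2Fs, at 1.05 ± 0.22, a call lost without wildtype replicate 2 (0.74, limma adjusted p = 0.0603). The list's median was 0.82 without wildtype replicate 1.

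Of 6 tested genes that activate or block the kinases, 2 were higher and 1 lower (median 0.57, or 0.35 without wildtype replicate 1). Among all genes tested, 14.7% were called higher and 15.7% lower. Pkmyt1, which phosphorylates CDK1, read 125.4 and 161.6 in sftpc-nmyc lungs and 46.8 and 14.9, also under that level, in wildtype lungs (2.25 ± 0.40), and passed the filter only through its sftpc-nmyc level. Ccnh, the cyclin of the CDK-activating kinase, rose by 0.85 ± 0.15. Cdc25b, a relative of Cdc25a that acts at mitosis, was lower at 168.8 and 170.2 in sftpc-nmyc lungs, against 242.3 and 262.7 in wildtype lungs (-0.56 ± 0.15, limma adjusted p = 0.0277), a call lost with any array left out (limma adjusted p = 0.0873 without sftpc-nmyc replicate 1, 0.0941 without sftpc-nmyc replicate 2, 0.0704 without wildtype replicate 1 and 0.124 without wildtype replicate 2) and with a replicate block (0.0506).

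Of 10 tested genes of cyclin and inhibitor destruction, 4 were higher and 0 lower in limma (5 and 0 at an unadjusted p under 0.05), with a median of 0.35. The shares over all genes tested were 14.7% higher and 15.7% lower. Skp2 and Cks1b, which together mark the inhibitor p27 for destruction, were both higher. Skp2 read 133.4 and 110.4 in sftpc-nmyc lungs and 43.8 and 26.5 in wildtype lungs (1.74 ± 0.27), and Cks1b 1149.3 and 1525.5 against 490.7 and 362.3 (1.61 ± 0.21). The wildtype signals of Skp2 were under the Bacillus level, and it passed the filter only through the sftpc-nmyc lungs. Cks2, the relative of Cks1b, rose by 1.29 ± 0.24. Cdkn1b, the p27 gene, named after its value was seen, stood at -0.12 ± 0.22 and did not pass (limma adjusted p = 0.708).

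Genes of DNA replication and mitosis were then read, from origin licensing, which takes place in G1, to mitotic entry. Of all genes tested, 14.7% were called higher and 15.7% lower. Of 20 tested genes of origin licensing and firing, 13 were higher and 0 lower (15 and 0 at an unadjusted p under 0.05 in limma), with a median of 1.12, and Cdt1, which loads the replicative helicase, read 570.1 and 745.8 in sftpc-nmyc lungs and 146.3 and 111.8 in wildtype lungs (2.30 ± 0.20). The helicase subunits Mcm2 and Mcm6 rose by 1.74 ± 0.19 and 1.60 ± 0.17. All 11 tested S-phase enzymes and clamps known as E2F targets were higher and 0 lower in limma, also at an unadjusted p under 0.05 (median 1.42), among them Dut, which clears dUTP, at 2.54 ± 0.21, Uhrf1 at 2.50 ± 0.20 and Pcna at 1.39 ± 0.16. Tyms, also on that list and named after its values were seen, was too dim to be tested. Its groups overlapped, at 4.8 and 16.4 in sftpc-nmyc lungs and 21.4 and 2.3 in wildtype lungs. Mitotic cyclins and kinases had 5 of 7 higher and 0 lower (6 and 0 at an unadjusted p under 0.05 in limma), with a median of 0.80. Of these Ccnf, which feeds proteins to a ubiquitin ligase, stood at 1.76 ± 0.23, Ccnb2 at 1.13 ± 0.24 and Cdk1 at 1.05 ± 0.19. Of these lists, 4 licensing genes (Orc1, Cdc45, Cdc7 and Gins1), 2 enzymes (Ung and Pola1) and Ccnf passed the filter on dim genes only through the sftpc-nmyc lungs, so that their part in the counts and medians was favoured by the filter. The wildtype signals of these 7, and of Dut (56.3 and 39.5) and Uhrf1 (49 and 37.9), were all under the Bacillus level, which leaves the size of their folds uncertain. The Ccnb2 call was lost without sftpc-nmyc replicate 2 (limma adjusted p = 0.064) or wildtype replicate 2 (0.0885), and the mitotic count was 3 without sftpc-nmyc replicate 1 and 2 without sftpc-nmyc replicate 2 or wildtype replicate 2.

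Cyclins and kinases that are not drivers of the G1/S step served as a comparison by name. Of 15 tested, 2 were higher and 1 lower (median log2 fold change 0.03), where 30.4% of all genes tested were called in either direction. Cdk9, the kinase of transcription elongation, read 512.5 and 566 in sftpc-nmyc lungs and 262.9 and 278 in wildtype lungs (0.97 ± 0.14, limma adjusted p = 0.00238). Cdk8, of the Mediator complex, stood at 0.53 ± 0.17 and Ccng2 at -0.58 ± 0.18. Both calls were lost with any of the 4 arrays left out, at limma adjusted p of 0.116, 0.167, 0.143 and 0.0954 for Cdk8 and 0.164, 0.0750, 0.0539 and 0.20 for Ccng2 without sftpc-nmyc replicate 1, sftpc-nmyc replicate 2, wildtype replicate 1 and wildtype replicate 2 in turn. With all 4 arrays, both were also lost with no filter (limma adjusted p = 0.0805 for Cdk8 and 0.0758 for Ccng2) and with no variance trend (0.0508 and 0.0661), and Cdk8 with a replicate block (0.0710).

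**Figure D4:**
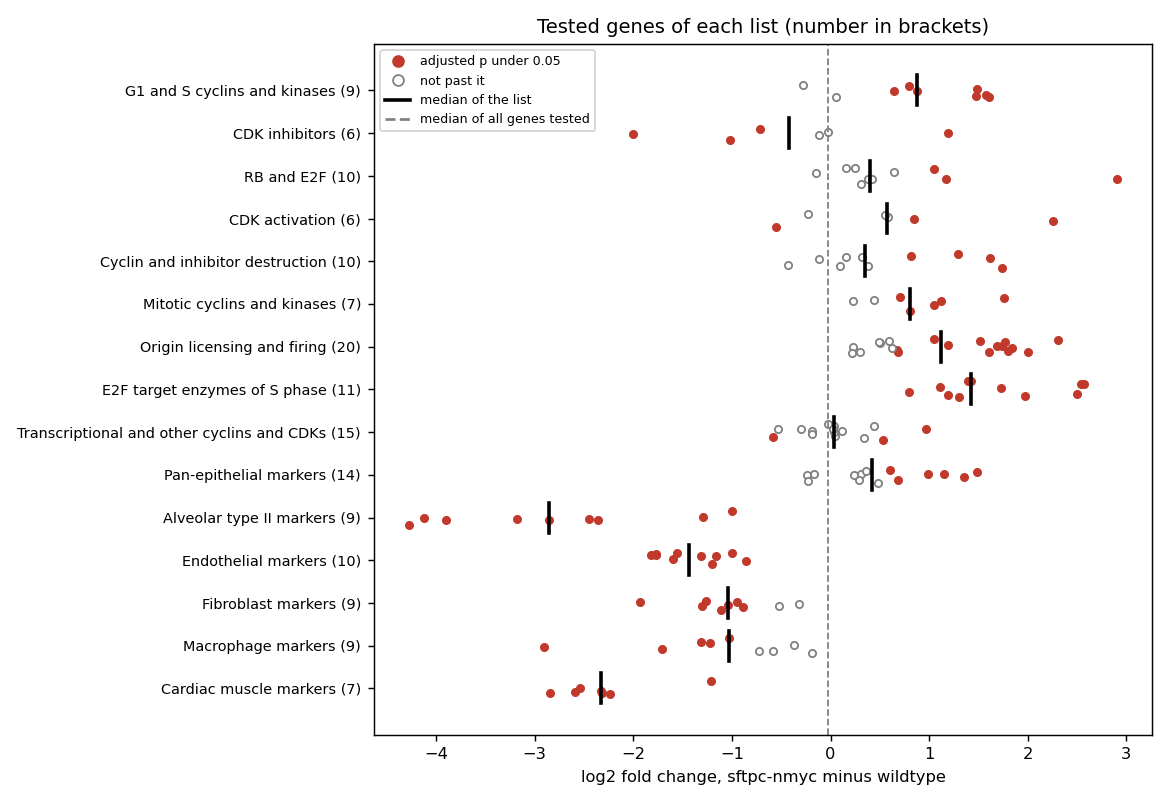
Log2 fold change, sftpc-nmyc minus wildtype, of every tested gene of the G1 and S set and of the other lists, with filled points past a limma adjusted p of 0.05, a bar at each list's median and a dashed line at the median of all genes tested. Medians were 0.88 for the G1 and S set, 1.12 for origin licensing, 0.03 for the other cyclins and kinases, 0.42 for pan-epithelial markers and -2.85 for alveolar type II markers.

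Replicates differed in these lists, in division genes and in others. On the normalized log2 scale, 9 of 11 S-phase enzymes and 6 of 7 mitotic genes were higher in wildtype replicate 1 than in wildtype replicate 2 (median differences 0.40 and 0.31), as were 7 of the 9 tested genes of the G1 and S set (median difference 0.06). Over all genes tested 50.5% were higher in wildtype replicate 1, with a median difference of 0.00452. In sftpc-nmyc lungs 4 of the 9 were higher in replicate 1, and 2 of the 11 S-phase enzymes (median difference -0.18). Of all genes tested, 48.0% were higher in sftpc-nmyc replicate 1, with a median difference of -0.0113. Marker lists differed by as much or more: in the wildtype lungs all 7 tested cardiac genes were higher in replicate 1 (median difference 0.73) and 0 of 9 type II genes (-0.27), and in the sftpc-nmyc lungs 8 of 9 type II genes were (0.56). The share of dividing cells in either lung was not measured.

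Cell type markers moved alongside the cell cycle genes, and their part in the results was not tested. In whole lung, fewer cells of a type and less RNA per cell cannot be told apart. Their counts stand beside 14.7% of all genes tested called higher and 15.7% called lower. Pan-epithelial markers were higher in 6 of 14 and lower in 0 (8 and 0 at an unadjusted p under 0.05 in limma), with summed signals of 11833 and 11598.1 in sftpc-nmyc lungs and 8422 and 8891.8 in wildtype lungs. Epcam, an adhesion molecule of epithelia, stood at 1.48 ± 0.12 and Esrp1, an epithelial splicing factor, at 1.36 ± 0.18. The 8 that did not pass included Krt19 (-0.24 ± 0.12), Krt7 (-0.23 ± 0.12) and Cldn4 (-0.17 ± 0.23), named after their values were seen, which lay on the other side of 0. The markers of differentiated type II cells, the surfactant-making cells in which the SFTPC promoter is active, went the other way in 9 of 9, with sums of 9333.1 and 6986.8 in sftpc-nmyc lungs and 30357 and 35483.7 in wildtype lungs. Slc34a2, their phosphate transporter, stood at -3.90 ± 0.18 and the chemokine Cxcl15 at -4.13 ± 0.20.

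Endothelial genes were lower in 10 of 10, where 15.7% of all genes tested were called lower. Their signals summed to 2859.3 and 2764.6 in sftpc-nmyc lungs and 7137.1 and 8046.8 in wildtype lungs. Among these genes were the junction genes Esam (-1.82 ± 0.13) and Cdh5 (-1.59 ± 0.13). Fibroblast genes were lower in 7 of 9, with sums of 11263 and 11091.2 in sftpc-nmyc lungs and 19047.3 and 20065.3 in wildtype lungs, and the 2 with the largest test statistic were the matrix genes Postn (-1.94 ± 0.15) and Col3a1 (-0.94 ± 0.10). The other two fibroblast genes and 4 macrophage genes did not pass. Macrophage genes were lower in 5 of 9, with sums of 1337.1 and 1332.6 against 4705.8 and 6168 in wildtype lungs. Lyz2, lysozyme, made up most of the wildtype sums, so the gap between the macrophage sums mostly follows this gene. Lyz2 read 528.3 and 530.7 in sftpc-nmyc lungs and 3047.4 and 4359.6 in wildtype lungs (-2.91 ± 0.17). That was the largest change on the list, whose median log2 fold change was -1.03. Which cells the Lyz2 signal came from was not measured. Csf1r, the receptor for colony-stimulating factor 1, stood at -1.32 ± 0.14. The 4 that did not pass, named after their values were seen, were Fcgr3 (-0.72 ± 0.24), Mrc1 (-0.58 ± 0.19), Adgre1 (-0.37 ± 0.18) and Cd68 (-0.19 ± 0.24). Cardiac muscle genes, which mark heart or pulmonary vein muscle, were lower in 7 of 7, with sums of 346.6 and 607.5 in sftpc-nmyc lungs and 3006.8 and 1869.8 in wildtype lungs, such as Tnnt2 (-2.31 ± 0.21) and Myl4 (-2.24 ± 0.25). Of these 7, Tnnt2, Tnni3, Myh6 and Ryr2 passed the filter only through the wildtype lungs and lay below the Bacillus level in both sftpc-nmyc lungs, so the count was favoured by the filter, and Nppa and Myl2 were too dim to be tested. None of the genes on these 6 marker lists read 1 or less on any array at its brightest probe set, and 0 genes on the 5 lists outside the pan-epithelial one were higher in limma, also at an unadjusted p under 0.05.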

How the data were processed

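The deposited values are linear intensities of 22690 probe sets on each array. Per the labels' protocols, RNeasy-purified total RNA was labelled with reagents from Affymetrix. The submitters' software and scaling are not stated in these sources. In the platform annotation 20380 probe sets had 1 symbol, 691 several and 1555 none, beside 64 controls. All 10 genes matched a RefSeq gene of GRCm38.p6 by identifier. After a floor of 1 and an added 5, values were put on the log2 scale and quantile normalized without the controls, so that fold changes are on that scale and understate those of dim genes. Genes (by their brightest probe set) and, separately, single probe sets below the 30th percentile of means were left out. Group was the only term in limma 3.58.1 (R 4.3.3, eBayes with a variance trend), with Benjamini-Hochberg adjustment over all genes, or all probe sets, tested at a threshold of 0.05. Values after ± are SEs from limma. The code was tested on simulated data.

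The 10 genes and the lists were chosen with earlier results of these data known. The genes named are these 10, Mycn, Max, sex-linked genes, and up to 3 genes of each cell cycle list (2 of each marker list) with the largest moderated statistic past the threshold, plus the largest passing the other way. Of the list genes, those without a single-symbol probe set, such as E2f2 and Ccnb1, were not analysed here. Alternatives changed the filter, offset, normalization, variance trend, probe set summary and replicate block, and left out each array in turn. The number of arrays limits precision.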

Additional observations from a re-analysis of the deposited data

How the results depend on the processing

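With 1 array left out, 1375 to 1899 genes were called over the whole table, against 2636 with all 4 (718 to 875 higher and 657 to 1024 lower, against 1276 and 1360), and 3 to 6 of the 9 G1 and S genes and 9 to 14 of their probe sets, all higher. A lone array of a group is there assumed to vary like the others. Ccnd1, at its brightest probe set, ran from -0.12 without wildtype replicate 2 to 0.24 without wildtype replicate 1, and was called in neither. Under the other alternatives 5 to 8 of the G1 and S genes were called, all higher: 5 with the filter at the 50th percentile, which leaves out Ccne1 and Ccne2, and 8 with the mean of probe sets, which adds Ccnd1. Replicate numbers are shared between the groups, but the difference of replicate 1 and 2 correlated at r = -0.0425 between them, so they were not taken as pairs. With a replicate block 2218 genes were called (1084 higher and 1134 lower), and 7 G1 and S genes and 16 of their probe sets. Leaving out _s_at and _x_at probe sets, an alternative chosen after seeing the data, gave 7 genes and 13 probe sets. Signal near background limits Cdk6 and every fold against a group below the Bacillus level, among them those of Ccne1, Ccne2, Mycn, Max, E2f8, Pkmyt1, Skp2, Ccnf, Dut, Uhrf1 and Tnnt2.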
